A study of Ovis aries with 95 samples.

Results

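The gene expression of the ovine cerebral cortex was compared across birth, between the 4 cortex arrays of lambs at 1 d of extrauterine life and the 4 cortex arrays of fetuses labelled 145 d of gestation. These 8 arrays were taken from 95 one-colour oligonucleotide arrays by their labels alone, and all probes for genes were considered, while control spots were left out. The whole series covers cortex, brainstem, hippocampus and hypothalamus at 80, 100, 120, 130 and 145 d of gestation and at 1 d after birth. The animals of both groups were sheep (Ovis aries) with no allele or experimental treatment given. Breed and sex are not stated in the sources used here. To collect the fetuses, the ewes were killed with intravenous pentobarbital and phenytoin. How the lambs were killed is not described. The group labelled 145 d was collected at 142 to 144 d, before any sign of labor in the ewes, and the piece of cortex came from the frontal part of each brain. Each group included 1 set of twins, which the labels do not mark, so 2 of the 4 arrays of a group may come from sibs that shared a uterus. Each array held RNA of 1 cortex, and no replicate was pooled.

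Birth changes the supply of oxygen, glucose and hormones to the brain and exposes the animal to microbes and to colostrum. The endothelium of the brain capillaries forms the blood-brain barrier, where tight junctions close the gaps between cells, transporters such as GLUT-1 admit glucose, and the efflux pump ABCB1 (P-glycoprotein) returns lipophilic compounds to the blood. Microglia are the resident macrophages of the parenchyma, and interferons induce a common set of antiviral and antigen-presenting genes in nearly every cell type, including those of the brain.

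Of 12900 genes tested in cortex, 32 passed limma at an adjusted p under 0.05, which is 0.248% of them. Of these 32 genes, 21 were higher in the newborn (0.163% of the genes tested) and 11 were lower (0.0853%). ABCB1, VDUP1 (thioredoxin-interacting protein, an inhibitor of glucose uptake), CHI3L1 (a secreted chitinase-like protein of astrocytes and macrophages) and ICAM1 (the endothelial ligand of leukocyte integrins) rose, while EDN1 (preproendothelin-1, the precursor of a vasoconstrictor peptide) and GLUT-1 (the glucose transporter of barrier endothelium and astrocytes) fell. These 6 were the called genes among the 893 with a symbol, or 0.672%. Of the other 26, 3 had a description that names a protein, namely 2 sequences of major histocompatibility complex (MHC) class I and the mu heavy chain of immunoglobulin M, and all 3 rose. The remaining 23 were expressed sequence tags (ESTs) without a gene name. At an unadjusted p under 0.05 there were 989 genes (7.67%), and 352 (2.73%) at one under 0.01. The median absolute change over all genes tested was 0.0819 on the log2 scale, and the median standard error 0.118. In whole pieces of cortex, fewer cells of a type and less RNA per cell cannot be told apart.

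**Figure D1:**
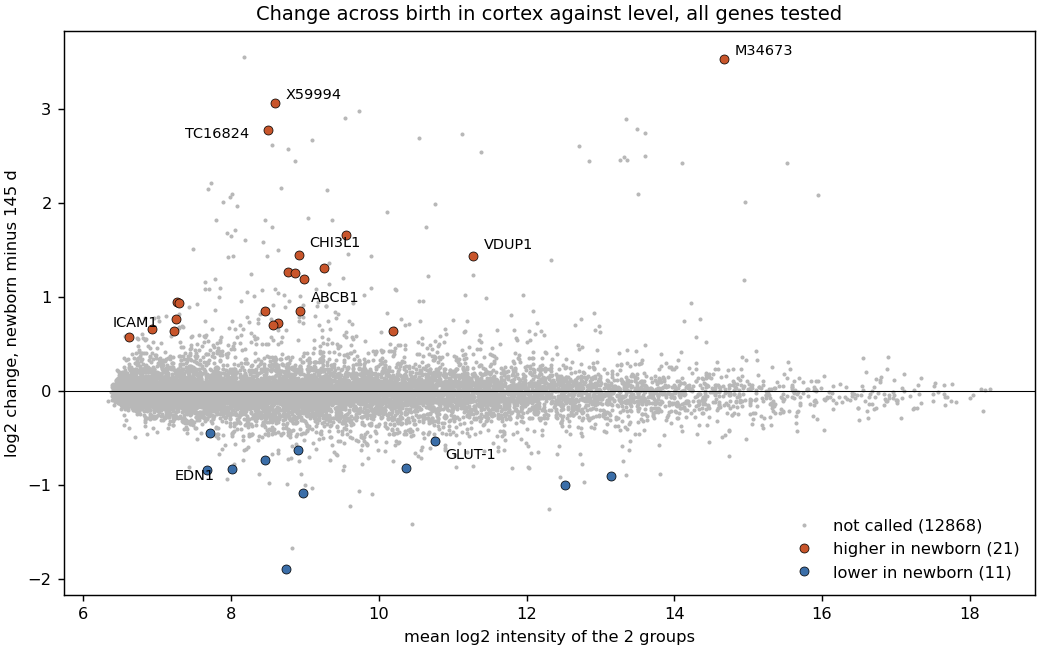
Each point is one of the 12900 genes tested in cortex. The x axis gives the mean log2 intensity of both ages and the y axis the log2 change from 145 d to the newborn, with the 21 genes called higher in orange and the 11 called lower in blue. The 2 MHC class I sequences (M34673 and TC16824) and the mu chain (X59994) lie at the top, while the 6 called genes with a symbol lie between -0.83 and 1.45.

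How many genes passed depended on single arrays. Without newborn replicate 1 the test called 176 genes (120 higher and 56 lower), among them all 32. Without newborn replicate 2, 3 or 4 it called 9, 2 and 13, and without replicate 1, 2, 3 or 4 at 145 d it called 7, 11, 11 and 8. Newborn replicate 1 was the newborn array nearest to the 145 d mean for 24 of the 32 genes, and over these genes it showed a share of 0.47 of the mean change, while replicates 2, 3 and 4 showed 1.27, 1.11 and 1.22. The fit took its spread from all 24 cortex arrays, and the newborn SD was above the residual SD of the fit for 28 of the 32 genes. With the 8 arrays fitted alone 2 genes passed. EE751760 was the only 1 of the 32 among them, so all calls with a symbol were lost. The 8 arrays lay on 3 slides that each held both ages, and 30 of the 32 genes moved the same way on all 3. ICAM1 is counted among them with a change of 0.00 on slide 1. The groups of 4 did not overlap for 28 of the 32 genes, against 3.45% of all genes tested (1.5% with the newborn higher and 1.95% lower). Both counts follow in large part from the choice of the 32 by a test on the same arrays, so they are no separate support. The fraction of probes with signal clearly over background (75.9 to 83.9%), the median intensity (290 to 528) and the median background intensity (55 to 66.5) did not separate the ages (exact two-sided permutation p = 0.657, 0.8 and 0.486, smallest possible 0.0286, n = 4 and 4), and no spot was saturated.

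The probe sequences of the called genes are printed because the array identifies each gene by these 60 bases alone, and the ESTs have no other identity here. No genome was used, so positions in the genome are not given. The sequences are those in the array files. For ABCB1, CHI3L1, ICAM1, TC16824 and the mu chain the whole probe is shown, and for ABCB1 capitals mark the 40 bases that its 2 probes share.
ABCB1, first probe: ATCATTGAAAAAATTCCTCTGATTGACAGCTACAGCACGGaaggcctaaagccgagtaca
ABCB1, second probe: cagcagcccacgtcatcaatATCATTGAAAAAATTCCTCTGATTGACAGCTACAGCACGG
CHI3L1: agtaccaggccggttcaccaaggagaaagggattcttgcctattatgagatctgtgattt
ICAM1: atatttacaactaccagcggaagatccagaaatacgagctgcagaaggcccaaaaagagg
TC16824: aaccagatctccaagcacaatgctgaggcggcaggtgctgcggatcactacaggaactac
X59994: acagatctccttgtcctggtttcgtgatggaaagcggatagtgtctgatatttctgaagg

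For the other called genes with a name, and for the ESTs with the largest changes, the first 30 bases of a probe are shown.
EDN1: ccccgtgaagatttttctaaggaatgcaca
VDUP1: tacagaattctgcatttctgacactgatca
GLUT-1: aatctgtaggggcggactatgactaaggac
EE822217: atctccgaaaatacctgacagcatatcagc
EE796126: ctgctggggaaaactgatcaattatacagt
EE751760: ctgtttagctgaaaaacaggtggtaaattt
FE023901: ctttcaaaatacaaatcttgtgcatcactt

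Whole pieces of cortex were measured, so the cells that gave the signals of the genes below are not known. ABCB1 stood at log2 intensities of 8.80, 8.52, 8.22 and 8.50 on the arrays of replicates 1 to 4 at 145 d and at 9.26, 9.03, 9.54 and 9.61 in the newborn. All newborn arrays were above all arrays at 145 d. The log2 change was 0.85 ± 0.14 (standard error, n = 4 and 4, adjusted p = 0.0131 from limma), a 1.8-fold rise. Its 2 overlapping probes changed by 0.79 and 0.91, and the change within slides 1, 2 and 3 was 0.47, 0.51 and 1.21. ABCB1 kept its call in 20 of 24 alternatives, among them the looser threshold of 0.1, which every call passes. It lost the call with the 8 arrays alone.

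EDN1 stood at 8.40, 8.43, 8.24 and 8.66 at 145 d and at 7.62, 7.33, 7.43 and 8.04 in the newborn. The groups did not overlap, and newborn replicate 4 was the nearest to the fetal arrays. The change was -0.83 ± 0.15 (adjusted p = 0.017), a 1.77-fold fall, with -0.77, -1.10 and -0.72 within slides 1, 2 and 3.

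Of the called genes with a symbol, GLUT-1 had the smallest SD at 145 d (0.06), with 11.03, 10.95, 11.10 and 11.02, and stood at 10.59, 10.23, 10.53 and 10.61 in the newborn. All newborn arrays were lower. The change was -0.53 ± 0.113 (adjusted p = 0.0484), a 1.45-fold fall, and its 2 probes, which share 59 of 60 bases and are not independent, changed by -0.56 and -0.50. This call was lost with the replicate number as a block (adjusted p = 0.0619) and with the slide as a block (0.051). It remained in 4 of 24 alternatives, among them the looser threshold of 0.1. The change stayed negative in all 24, which is fixed in advance where 1 array is left out, as the groups do not overlap.

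ICAM1, to which leukocytes bind on activated endothelium, was at 7.08, 7.03, 6.74 and 6.80 at 145 d and at 7.09, 7.79, 7.47 and 7.87 in the newborn. Newborn replicate 1 was level with the fetal arrays and the other arrays were above them. The change was 0.64 ± 0.132 (adjusted p = 0.0449), and within slide 1 it was 0.00. SELP (P-selectin, on which leukocytes roll) was next among the 12 tested genes of leukocyte adhesion, with 6.64, 6.51, 6.53 and 6.63 at 145 d against 6.69, 7.09, 7.32 and 7.40 in the newborn. SELP did not pass (0.55 ± 0.121, adjusted p = 0.0622), and it was well above background on 2 of the 4 arrays at 145 d. The integrin subunits that bind ICAM1, ITGAL (0.10), ITGAM (0.20) and ITGB2 (0.39), did not pass either.

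Among the 33 tested genes of endothelium and barrier, 2 rose (ABCB1 and ICAM1), 2 fell (EDN1 and GLUT-1) and the other 29 did not pass, with a median change of -0.02, the same as over all genes. The tight junction genes showed values near 0, with OCLN (occludin) at -0.02, ZO1, ZO2 and ZO3 (scaffolds of the junction) at -0.01, -0.01 and -0.02, and CLDN1 at 0.03. CLDN3 was at -0.12. At 145 d ZO1 (6.54 to 6.64) and ZO3 (6.51 to 6.59) lay near the lowest signal well above background (median 6.36). One of the probes of CLDN1 was well above background on 0 arrays at 145 d. A fall of these genes could thus not be seen. The endothelial markers PECAM1 (0.05), TIE1 (0.05) and KDR (-0.02) also lay near 0. ABCG2, the other efflux pump of the barrier on this array, was at 0.11.

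VDUP1 was at 10.65, 10.71, 10.43 and 10.45 at 145 d and at 11.17, 11.74, 12.22 and 12.82 in the newborn. The newborn arrays were all higher and far apart, with an SD of 0.70 against 0.14 at 145 d. The change was 1.43 ± 0.25 (adjusted p = 0.0147), a 2.69-fold rise. Its 2 probes lie in separate stretches of the transcript and changed by 1.34 and 1.51. VDUP1 is known to be induced by glucose and by glucocorticoids. Of the 7 tested genes of the glucocorticoid list it was the only one that passed. The receptor NR3C1 was at -0.01, FBXO32 at 0.26 and NFKBIA at 0.23, and none of these passed. HSD11B2, which inactivates cortisol, did not pass and was not well above background on any array at 145 d or on 2 of the newborn arrays. The part of glucose or glucocorticoids in the rise of VDUP1 was not tested.

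EDN1 and GLUT-1 are both targets of hypoxia-inducible factors, and of the 23 tested gene names of the hypoxia list they were the 2 that fell, while none rose. The part of oxygen in these changes was not tested. VEGFA, an angiogenic factor, was at 8.09, 7.84, 8.17 and 8.10 at 145 d and 7.30, 7.26, 7.79 and 8.04 in the newborn, and did not pass (-0.46 ± 0.197, adjusted p = 0.562). NOS2 had a value of -0.19 and was the fourth with an unadjusted p under 0.05. Its signal was near background, with 1 probe well above it on 0 arrays of either age. The other was well above it on 3 arrays at 145 d and 1 newborn array. These 4 are 17.4% of the list, against 3.6% of all genes tested with a lower newborn level. The glycolytic targets LDHA (0.18) and ALDOA (0.16) lay above 0, and the median of the list was -0.08, against -0.02 over all genes. A total of 19 of the 23 values were below 0, but some genes count under several names of the array (such as FLT1, FLT-1 and VEGFR-1, or EPAS1 and EPAS).

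**Figure D2:**
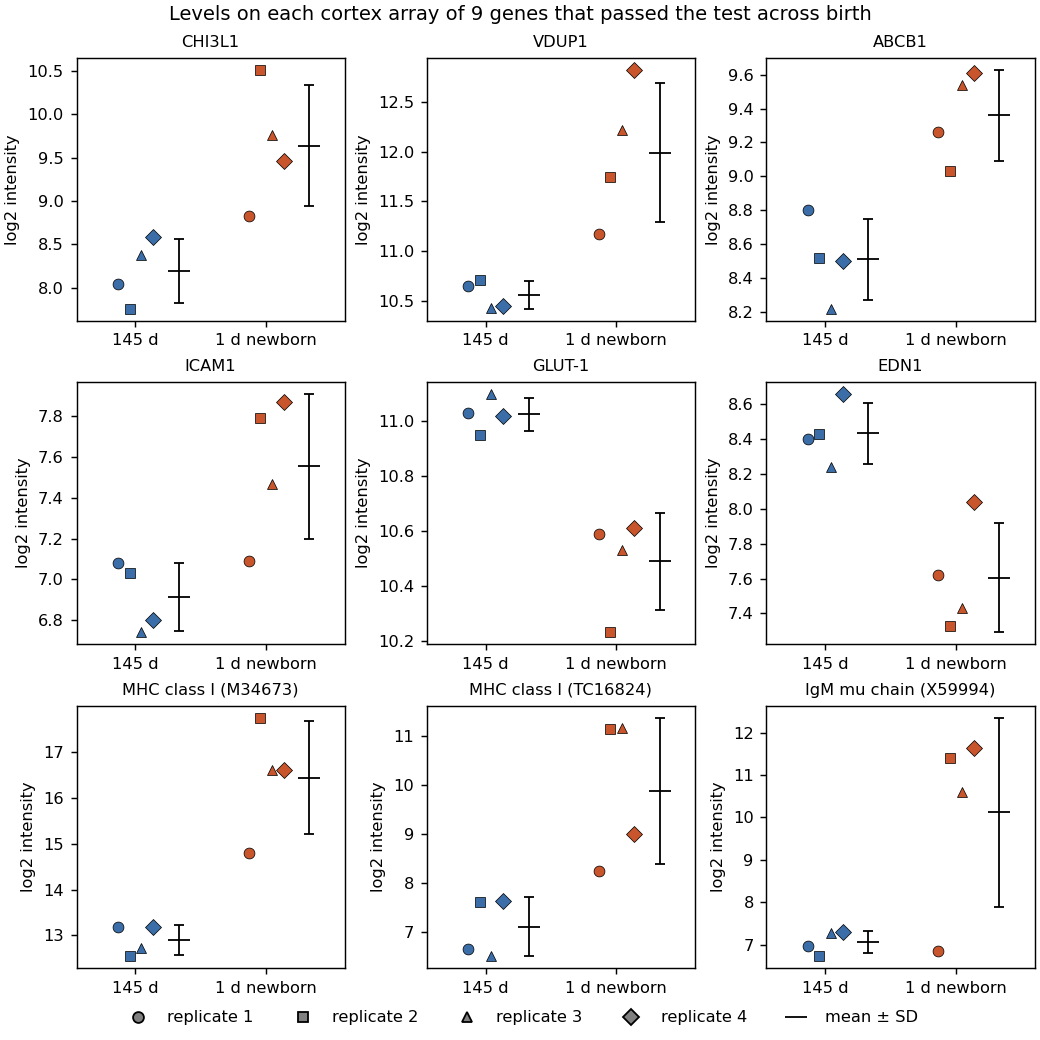
Log2 intensity on each of the 8 cortex arrays for the 6 called genes with a symbol and the 3 whose description names a protein, in 9 panels. Marker shape gives the replicate number, blue is 145 d of gestation, orange is 1 d after birth, and the bar is the mean ± SD of 4 arrays. Newborn replicate 1 (circle) lies nearest to the fetal arrays in the panels of CHI3L1, VDUP1, ICAM1 and the 3 sequences of the bottom row.

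CHI3L1, which is secreted by activated astrocytes and macrophages, was at 8.04, 7.76, 8.38 and 8.59 at 145 d and at 8.83, 10.51, 9.76 and 9.46 in the newborn. The groups did not overlap. The change was 1.45 ± 0.291 (adjusted p = 0.0404), a 2.72-fold rise that came to 0.78, 2.75 and 1.12 within slides 1, 2 and 3.

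CHI3L1 was the 1 called gene of the 29 tested in the list of microglia and myeloid cells. Unadjusted p-values under 0.05 were found for 13 of the 29 with a higher newborn level and 1 with a lower one, against 4.06% and 3.6% of all genes tested, and the median change was 0.26. Gene lists were chosen with earlier results of these data known, so such shares describe a list and are not a test. CD14, the lipopolysaccharide co-receptor of monocytes, was at 7.89, 7.91, 7.56 and 7.40 at 145 d and at 7.66, 8.72, 9.23 and 9.36 in the newborn (1.05 ± 0.235, adjusted p = 0.0658). C5aR (complement receptor), SLC11A1 (phagosomal metal transporter) and FCGR1A (high-affinity Fc receptor) had values of 0.80, 0.67 and 0.60, and none passed. Genes shared by resident and blood-borne myeloid cells spread over a range, with CTSS at 0.99, FCER1G at 0.53, CYBA at 0.50, CD86 at 0.46, ITGB2 at 0.39, ITGAM at 0.20, TLR4 at 0.16, CYBB at 0.12 and PTAFR at -0.02, and none passed. The value below 0 with an unadjusted p under 0.05 was that of LGALS1 (galectin-1, an immunoregulatory lectin), at 11.33, 11.59, 11.98 and 11.80 against 11.42, 10.90, 10.47 and 10.70 (-0.80 ± 0.189, adjusted p = 0.0953).

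MHC class I molecules present peptides from inside the cell to cytotoxic T cells. Of 14 tested sequences described as MHC class I, 2 rose by the test. An unadjusted p under 0.05 was found for 13, all higher, against 4.06% of all genes tested. The newborn arrays were above all fetal ones in 12 of the 14, against 1.5% of all genes tested. The median change was 2.48. M34673 was at 13.18, 12.55, 12.72 and 13.18 at 145 d and at 14.79, 17.74, 16.60 and 16.61 in the newborn. The change was 3.53 ± 0.746 (adjusted p = 0.0484, and 0.0508 with the slide as a block), an 11.5-fold rise. TC16824 was at 6.66, 7.62, 6.52 and 7.63 at 145 d, well above background on 2 of these 4 arrays, and at 8.25, 11.13, 11.15 and 8.99 in the newborn (2.77 ± 0.572, adjusted p = 0.0449).

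These sequences are not 14 separate measurements. MHC class I genes are a family of near-identical, polymorphic copies, and among their 15 probes 11 of the 105 pairs share a run of 20 bases or more, the longest being 53. The stretches below are shown because 3 probes of the family share the 23 bases in capitals.
M34673: cttcatgTGCACTGAGTAATGATGTCTTAT
M34674: cttcacaTGCACTGAGTAATGATGTCTTAT
M34676: cttcgtaTGCACTGAGTAATGATGTCTTAT
Despite the shared run the arrays did not give these 3 the same order. M34674 was at 14.39, 9.12, 13.18 and 12.29 at 145 d and at 14.19, 17.38, 12.58 and 15.77 in the newborn, so 2 of its fetal arrays lay within the newborn range. M34676 was at 15.41, 13.91, 14.81 and 15.48 against 16.08, 18.46, 16.75 and 16.64. The probes cannot assign the signal to one gene copy.

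The partner of class I on the cell surface, B2M (beta-2-microglobulin), was at 14.15, 13.67, 14.11 and 13.86 at 145 d and at 14.33, 17.27, 16.50 and 15.73 in the newborn. The groups did not overlap, but the newborn SD was 1.25 against 0.23 and the change of 2.01 ± 0.517 did not pass (adjusted p = 0.134). PSMB8, a subunit of the immunoproteasome that cuts peptides for class I, was at 7.37, 7.16, 7.20 and 7.24 against 7.70, 10.10, 8.79 and 8.09 (1.42 ± 0.406, adjusted p = 0.223). For class II, which presents peptides from outside the cell, 0 of 10 tested sequences passed and 6 had an unadjusted p under 0.05, all higher. Among all genes tested 4.06% had such a p with a higher newborn level. The DR alpha chain (M73983) was at 8.02, 8.13, 8.43 and 8.40 at 145 d and at 8.81, 13.47, 11.46 and 11.14 in the newborn (2.98 ± 0.761, adjusted p = 0.134).

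Interferon-stimulated genes differed widely among the newborn arrays. All 17 tested had a value above 0, with a median of 0.89. Of these, 12 had an unadjusted p under 0.05 (against 4.06% of all genes tested, newborn higher), 9 had newborn arrays above all fetal ones (against 1.5%), and 0 passed. As for the other lists, these shares describe the list and are not a test. The list also holds antigen presentation genes, namely OVAR (an MHC class I sequence), B2M, PSMB8 and PSME2. The interferon and MHC counts are therefore not separate findings. ISG15, a ubiquitin-like antiviral protein, was at 9.48, 8.48, 9.18 and 9.68 at 145 d and at 12.55, 14.02, 11.41 and 9.61 in the newborn. Newborn replicate 4 was within the fetal range and replicate 2 was the highest (2.69 ± 0.729, adjusted p = 0.178). CXCL10, a chemokine that attracts T cells, was at 7.07, 6.88, 7.36 and 7.68 against 8.85, 13.55, 9.01 and 8.01 (2.61 ± 0.977, adjusted p = 0.415).

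MX2, a dynamin-like antiviral GTPase, was nearest to passing in this list, with 8.38, 8.33, 8.24 and 8.01 at 145 d and 9.98, 12.35, 10.29 and 8.88 in the newborn. Its change of 2.14 ± 0.477 had an adjusted p of 0.0658, and of 0.0484 with the replicate number as a block. Among transcription factors of the pathway IRF1 was at 0.89, IRF2 at 0.13 and IRF3 at 0.13. The receptor subunits IFNAR1 and IFNAR2 were at 0.16 and 0.13. The cytokine IFNG, itself an inducer of the class II genes, was at -0.22 and did not pass.

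**Figure D3:**
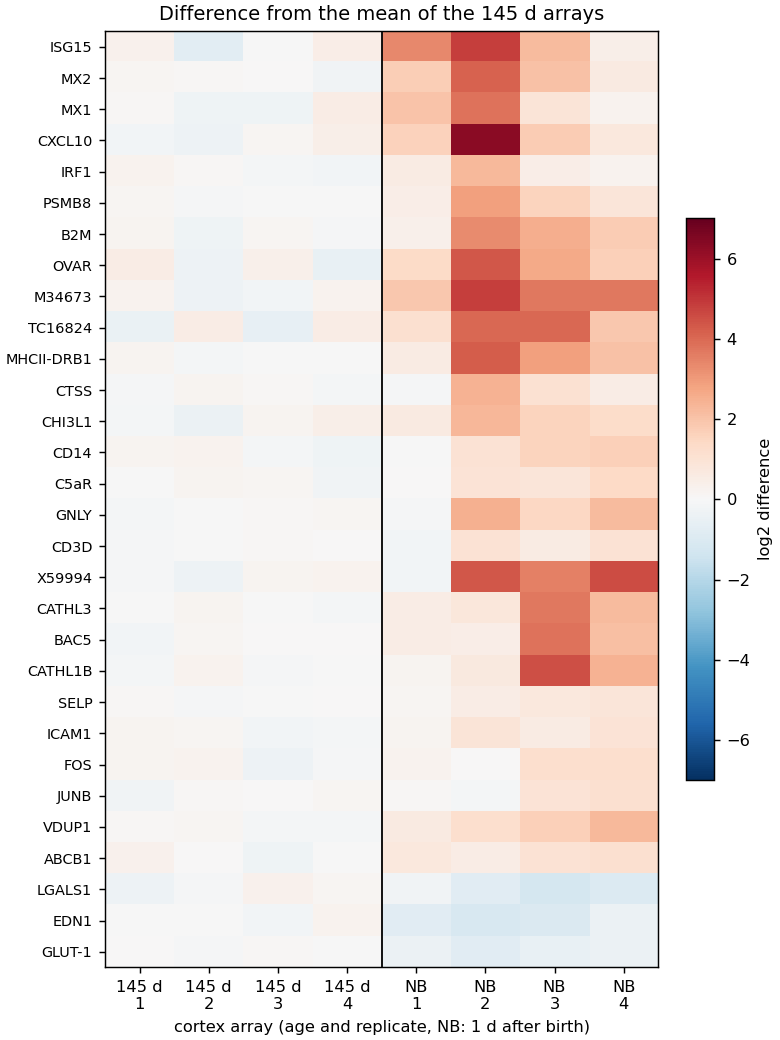
Log2 difference of each of the 8 cortex arrays from the mean of the 4 arrays at 145 d, for 30 genes in rows and the arrays in columns (NB, newborn), from blue (lower) to red (higher). Interferon and MHC genes other than TC16824 are reddest on newborn replicate 2, cathelicidins (CATHL3, BAC5, CATHL1B) on replicate 3, and newborn replicate 1 is pale for X59994, GNLY, CD14 and SELP.

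Antimicrobial peptides of the neutrophil granule had another order among the newborns. CATHL3, a cathelicidin, was at 6.88, 7.06, 6.84 and 6.78 at 145 d and at 7.42, 7.69, 10.60 and 9.11 in the newborn (1.82 ± 0.531, adjusted p = 0.233). CATHL1B was at 7.30, 7.77, 11.63 and 9.55 in the newborn and BAC5 at 7.70, 7.64, 10.99 and 9.31, so replicates 3 and 4 were the high arrays for all 3 cathelicidins. The probes of different cathelicidin genes share at most 11 bases. Of the 14 tested genes of the antimicrobial list none passed, and the median was 0.13. An unadjusted p under 0.05 was found for 6, all higher, against 4.06% of all genes tested. LTF (lactoferrin, of neutrophil secondary granules), MMP9 (gelatinase) and LPO (lactoperoxidase) were at 0.06, 0.03 and 0.01.

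Of 4 tested immunoglobulin constant regions, the secreted mu chain X59994 rose. It was at 6.98, 6.73, 7.27 and 7.29 at 145 d and at 6.85, 11.41, 10.61 and 11.63 in the newborn, where replicate 1 was within the fetal range and the other arrays were all above 10 on this scale. The change was 3.06 ± 0.651 (adjusted p = 0.0484), with -0.13, 4.68 and 3.84 within slides 1, 2 and 3, and 2.21 and 3.91 for its 2 probes. The other 3 constant regions and the 24 tested variable regions did not pass, with medians of 0.40 over the 4 constant and 0.06 over the variable regions. Of 13 tested lymphocyte genes 0 passed. CD3D and CD3E, signalling chains of the T cell receptor, were at 0.59 ± 0.2 (adjusted p = 0.328) and 0.52 ± 0.246 (0.628), CD5 at 0.54 ± 0.158 (0.233), and CD247 and LCK at -0.04 and 0.11. Of the 3 probes of GNLY (granulysin), 2 were not well above background on any array at 145 d and were well above it on 3 newborn arrays, while the third was well above background on all 8 arrays and had a difference of 0.00.

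Whole-list levels by array are given here because blood or immune cells may differ between pieces of tissue, and their part in these results was not tested. The mean log2 level of the 13 lymphocyte genes ranged from 7.01 to 7.13 at 145 d and was 6.99, 7.64, 7.30 and 7.47 in newborn replicates 1 to 4. That of the 29 myeloid genes ranged from 8.06 to 8.13 and was 8.15, 8.66, 8.43 and 8.38, and that of the 14 antimicrobial genes from 7.59 to 7.61 and was 7.73, 7.90, 8.64 and 8.29. The 8 genes of red cells and plasma ranged from 9.55 to 9.77 at 145 d and from 9.53 to 9.82 in the newborn, so both ages overlapped. HBB (beta globin) had means of 11.95 and 12.15, and ALB (albumin) was at 0.05. The 17 interferon genes ranged from 9.15 to 9.40 at 145 d and were 10.13, 11.60, 10.22 and 9.73 in the newborn, and the 14 MHC class I sequences ranged from 11.02 to 12.34 and were 13.13, 15.99, 14.01 and 13.57.

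The newborn animals were thus not uniform. Newborn replicate 2 held the highest level of the 4 for 15 of the 17 interferon genes and 13 of the 14 MHC class I sequences. It did so also for 7 of 10 MHC class II sequences, 17 of 29 myeloid and 7 of 13 lymphocyte genes. Replicate 3 was the highest for 7 of the 14 antimicrobial genes, and replicate 4 for 10 of the 13 immediate early genes. The same shares over all genes tested are not given here, so these counts only describe the lists. In brainstem the same replicate numbers were high, with ISG15 at 13.16, 14.54, 11.10 and 10.12 and CATHL3 at 7.60, 7.93, 10.93 and 8.93 in newborn replicates 1 to 4. In hypothalamus ISG15 was at 13.34, 14.64, 11.48 and 10.72 and CATHL3 at 7.50, 7.78, 10.44 and 8.92. In hippocampus the order was another one, with ISG15 at 13.97, 10.32, 12.73 and 11.19 and CATHL3 at 6.93, 9.09, 6.65 and 10.42. The labels do not say whether a replicate number marks one animal across regions.

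Immediate early genes, which are transcribed within minutes of a stimulus, did not pass in any of 13 cases. FOS was at 9.07, 9.15, 8.55 and 8.82 at 145 d and at 9.13, 8.92, 10.06 and 10.09 in the newborn (0.65 ± 0.226, adjusted p = 0.346). JUNB showed the same split, with 8.51 and 8.30 on newborn replicates 1 and 2 and 9.40 and 9.55 on replicates 3 and 4. EGR1 was at 0.11 and C-JUN at 0.00.

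In 24 tested neuron and synapse genes 0 passed and the median was -0.12, against -0.02 over all genes. With 4 arrays per group, not passing does not show that these genes were unchanged. The 3 with an unadjusted p under 0.05 were ROBO2 (an axon guidance receptor, -0.38), GRIN1 (the obligatory NMDA receptor subunit, -0.35) and MGLUR1 (-0.14). They are 12.5% of the list, against 3.6% of all genes tested with a lower newborn level. Of the 24 values 19 were below 0. The AMPA receptor subunits GRIA1, GRIA2, GRIA3 and GRIA4 were at 0.21, -0.22, -0.24 and -0.15, with adjusted p-values that did not pass. NPY, a peptide of cortical interneurons, was at 12.70, 12.75, 12.60 and 12.61 at 145 d and at 12.26, 12.03, 12.42 and 12.47 in the newborn. The groups did not overlap, but the change of -0.37 ± 0.127 did not pass (adjusted p = 0.346).

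Of 12 tested astrocyte genes 0 passed. GFAP, the intermediate filament of astrocytes, was at 10.87, 10.92, 10.56 and 10.16 at 145 d and at 11.03, 11.13, 11.89 and 11.51 in the newborn (0.76 ± 0.182, adjusted p = 0.0965), the one member above all fetal arrays. AQP4, a water channel of the astrocyte endfoot, was at -0.69 and the glutamate transporter under its names EAAT2 and GLT-1 at -0.02 and -0.06. GJA1 and CONNEXIN 43 are array names for the same gap junction gene and gave -0.28 and 0.08. Of the markers chosen for neurons, oligodendrocytes and cortex (such as SYT1 and MBP) none has a probe with that name, so the label of cortex could not be checked against its own markers. The 4 astrocyte markers with a probe were well above background on all 8 arrays. TTR, a marker of choroid plexus, was at 15.33, 10.83, 10.20 and 8.25 at 145 d and at 9.48, 10.10, 7.67 and 11.72 in the newborn, so that the groups overlapped and only replicate 1 at 145 d lay above all newborn arrays. The mean level of the 6 tested genes of choroid plexus overlapped between the ages as well (9.96 to 11.22 and 9.70 to 10.31). The part of that tissue in the results was not tested.

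**Figure D4:**
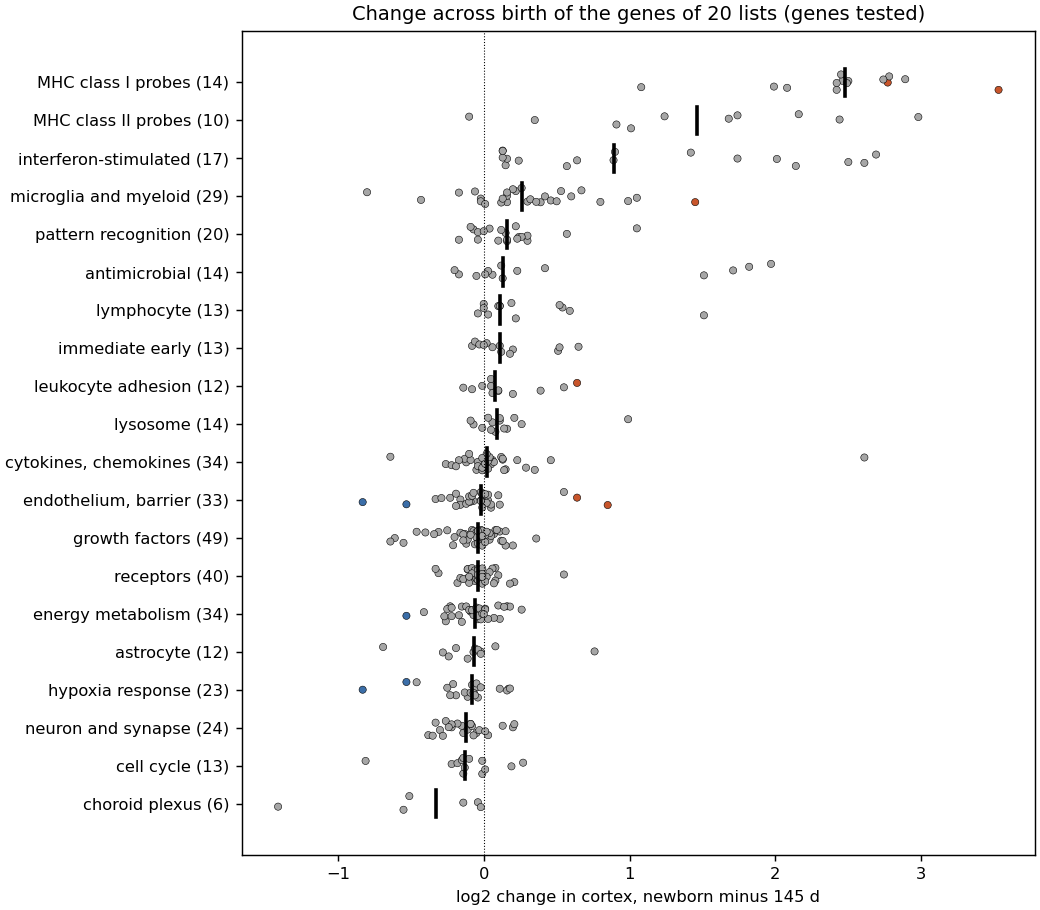
Log2 change across birth for the tested genes of 20 lists, one point per gene, with the number tested in parentheses. Black bars are medians, orange points passed with a higher and blue points with a lower newborn level, and grey points did not pass. The medians of MHC class I (2.48), MHC class II (1.46) and interferon-stimulated genes (0.89) lie to the right of 0, while that of endothelium and barrier genes is -0.02.

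The medians of metabolic and growth genes were close to that of all genes. In energy metabolism 1 of 34 tested passed (GLUT-1), and the median was -0.06. GAPDH was at -0.10, CKB (brain creatine kinase) at 0.14 and PCK1 at -0.04. IDH1, the cytosolic isocitrate dehydrogenase, was at 13.20, 13.87, 14.08 and 14.03 against 13.57, 13.18, 13.20 and 13.58 (-0.41 ± 0.157, adjusted p = 0.424). In 49 tested growth factor genes none passed, and the 5 with an unadjusted p under 0.05 were all below 0, namely TGFB2 (-0.64), AREG (-0.61), VEGFA (-0.46), ACVR2B (-0.34) and WNT-5A (-0.31). These 5 are 10.2% of the list, against 3.6% of all genes tested with a lower newborn level.

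In the cell cycle list, CCND2, a cyclin of neural progenitors, was at 12.18, 12.36, 12.82 and 12.35 at 145 d and at 12.30, 11.13, 11.58 and 11.46 in the newborn (-0.81 ± 0.256, adjusted p = 0.277), and PCNA was at 0.01. Of 40 receptors, 34 cytokine and chemokine genes, 20 lipid and sterol genes, 14 lysosome genes, 10 clock genes and 8 heat shock genes none passed. The median over these lists ranged from -0.04 for receptors to 0.09 for lysosome genes. Among the antioxidant genes VDUP1 was the one that passed, and TXN, the thioredoxin it binds, was at -0.17. TNF was at 0.46 ± 0.159 (adjusted p = 0.346), IL6 at -0.26 and IL1B at 0.13.

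Among the 23 called ESTs, EE822217 had the largest rise. It was at 9.02, 8.74, 8.85 and 8.33 at 145 d and at 8.91, 10.25, 10.69 and 11.71 in the newborn (1.66 ± 0.347, adjusted p = 0.0484), with newborn replicate 1 within the fetal range, and it lost its call with the replicate block (adjusted p = 0.0619). EE796126 followed, with 8.46, 8.55, 8.68 and 8.71 against 8.82, 10.18, 10.28 and 10.35 (1.31 ± 0.243, adjusted p = 0.022). The largest fall was that of EE751760, at 9.80, 9.43, 9.96 and 9.55 against 8.33, 7.64, 7.60 and 7.61 (-1.89 ± 0.339, adjusted p = 0.0162, a 3.71-fold fall). FE023901 fell from 9.75, 9.70, 9.39 and 9.23 to 8.80, 8.64, 8.39 and 7.93 (-1.08 ± 0.192, adjusted p = 0.0162). In these last 2 the groups were clearly apart. CO202633 was not well above background on any array at 145 d and was at least 1.4-fold higher in the newborn.

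The direction of the named calls held with any 1 of the 8 arrays left out, but the calls themselves did not. Where the groups do not overlap, leaving out an array cannot reverse the direction, so this is no separate support. Of the genes below, only X59994 and EE822217 had groups that overlapped. ABCB1 was lost only without newborn replicate 3 (0.79, adjusted p = 0.0612). VDUP1 was lost without newborn replicate 3 or replicate 1, 3 or 4 at 145 d (adjusted p up to 0.0674), and ranged from 1.15 to 1.70. EDN1 was lost without newborn replicate 2 or 3 or replicate 1, 2 or 4 at 145 d (adjusted p up to 0.102), and ranged from -0.97 to -0.74. FE023901 was lost without newborn replicate 3 or 4 or replicate 1 or 2 at 145 d, with -1.20 to -0.91, and EE751760 without any array but newborn replicate 1 and replicate 2 at 145 d, with -2.07 to -1.80. CHI3L1, ICAM1, GLUT-1, M34673, TC16824, X59994, EE822217 and EE796126 kept their call only without newborn replicate 1. Their ranges were 1.16 to 1.72 for CHI3L1, 0.53 to 0.80 for ICAM1, 3.09 to 4.08 for M34673 and 2.56 to 4.15 for X59994.

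Whether birth bent the earlier course was asked by setting the step from 145 d to the newborn against the step from 130 to 145 d, both of which share the 145 d arrays. No gene passed this test in limma, while 537 (4.16%) had an unadjusted p under 0.05, and without newborn replicate 1 the count was 11. EDN1 had means of 7.45, 7.54, 7.79, 8.21 and 8.43 from 80 to 145 d and of 7.60 in the newborn, near its level at 100 d. Its bend was -1.05 ± 0.259 (unadjusted p = 0.000577, adjusted p = 0.865). GLUT-1 had 10.09, 10.41, 10.66, 11.20 and 11.02 and then 10.49, and its bend was -0.36 ± 0.195 (unadjusted p = 0.0831, adjusted p = 0.994).

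The genes with a higher newborn level had courses of different shape. ABCB1 had a higher mean at each age, with 7.79, 7.92, 8.02, 8.32 and 8.51 before 9.36 in the newborn. VDUP1 was at 10.92, 10.63, 10.54, 10.32 and 10.56 and then at 11.99, above all fetal means. GFAP, which did not pass across birth, went from 7.94 through 8.67, 9.58 and 10.23 to 10.63 and 11.39 (bend 0.36 ± 0.316). The EST EE796126 had gone from 9.77 at 80 d to 8.60 at 145 d, and its newborn mean of 9.91 was near that at 80 d. FE023901 had the opposite course, with 7.52 at 80 d, 9.52 at 145 d and 8.44 in the newborn.

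**Figure D5:**
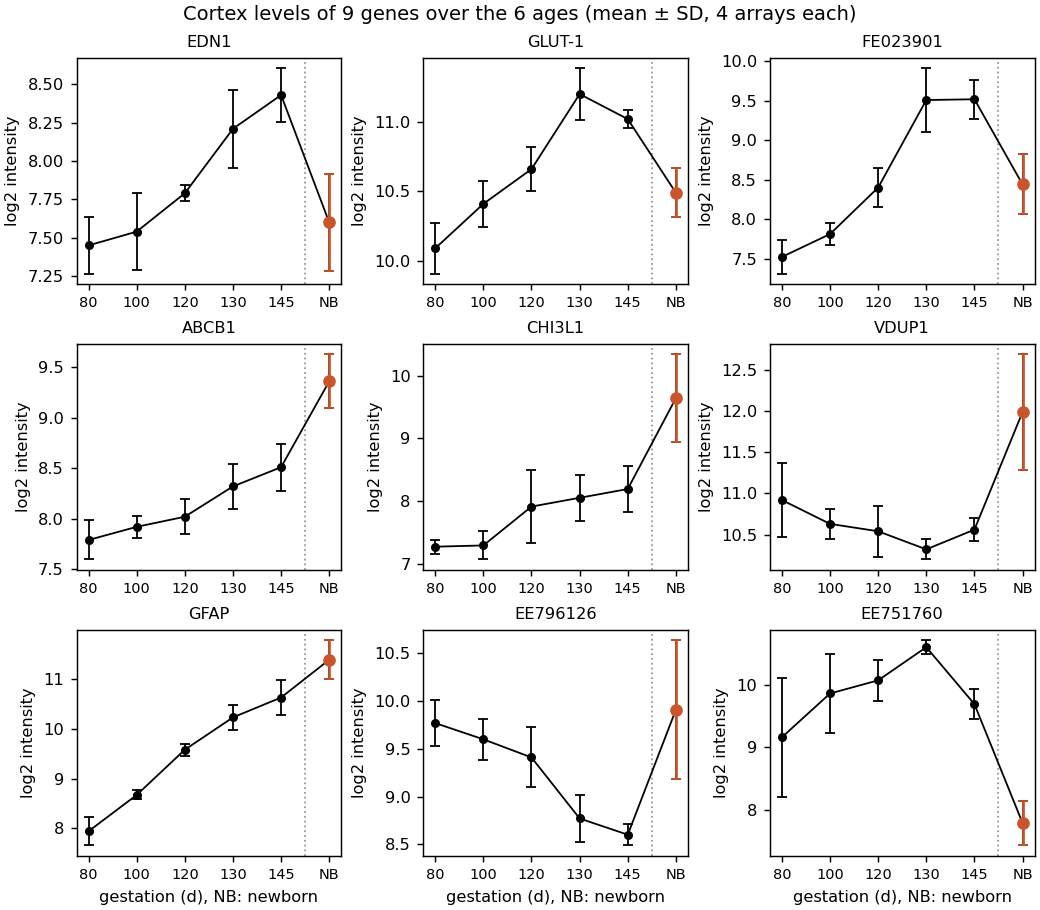
Mean log2 intensity ± SD of 4 cortex arrays at 80, 100, 120, 130 and 145 d of gestation and in the newborn (NB, orange) for 9 genes. The dotted line marks birth. EDN1, GLUT-1 and FE023901 have newborn means below that at 145 d, ABCB1, CHI3L1 and GFAP have their highest mean in the newborn, and EE796126 returns to 9.91.

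The step across birth in cortex was then compared with that of each other region in one fit over 95 arrays. The study's count of fetuses per age implies that the regions came from the same animals, which the labels do not mark. This fit treated all arrays as independent, so its p-values do not account for that pairing. No gene differed from brainstem or hippocampus at an adjusted p under 0.05 in limma, with 432 (3.35%) and 214 (1.66%) at an unadjusted p under 0.05. From hypothalamus 1 of 12899 genes differed (0.00775%), with 718 (5.57%) at an unadjusted p under 0.05. This gene was the EST EE769660. It was at 9.38, 8.84, 9.09 and 8.77 at 145 d and at 8.73, 8.09, 8.87 and 8.57 in the newborn in cortex, while in hypothalamus it was at 6.69, 8.17, 7.59 and 8.21 and then at 9.46, 8.82, 8.59 and 9.61. The 2 steps differed by -1.90 ± 0.37 (adjusted p = 0.0275). The call was lost without cortex newborn replicate 2 or 4, cortex replicate 1 or 3 at 145 d, hypothalamus newborn replicate 4 or hypothalamus replicate 1 at 145 d, where the count was 0.

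For the named genes the steps of the regions stood as follows. EDN1 had -0.83 in cortex, -0.78 in brainstem, -0.68 in hypothalamus and -0.88 in hippocampus. VDUP1 had 1.43, 1.01, 1.72 and 1.49 and ICAM1 0.64, 0.65, 0.58 and 0.43 in the same order. ABCB1 had 0.85, 0.83, 0.52 and 0.16, and its difference between cortex and hippocampus, 0.69, had an unadjusted p of 0.0093. GLUT-1 was at -0.53 in cortex and at -0.18, 0.46 and -0.15 in the others, with no difference past the threshold. M34673 was at 3.53 in cortex and at -0.59 in brainstem, a difference of 4.12 ± 1.26 (unadjusted p = 0.00165, adjusted p = 1). In brainstem 1 newborn array was left out of that value as an outlier spot, and without newborn replicate 4 there, an array whose areas had median log2 deviations from -0.78 to 0.49 from the mean of its group, the difference was 2.26 ± 1.22 (unadjusted p = 0.0684).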

How the data were processed

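RNA of each brain region was labelled with Cy3 and hybridised by the authors to Agilent 60-base sheep arrays. The deposited files hold scanner intensities of each spot with local background, extracted per the file headers with Feature Extraction 10.1.1.1, and the authors' table of log2 values, whose processing used limma per the labels. Background was corrected here by normexp with an offset of 50, followed by log2 and quantile normalization over all 95 arrays. Spots marked as outliers were left out, and spots of one probe were averaged. The authors filtered probes by their brightness over negative control probes. Here a probe was kept if it exceeded 1.1 times the 95th percentile of those controls, a percentile the methods do not name, on 4 or more cortex arrays (13437 of 15008 probes). Probes of one name were centred and averaged. limma 3.58.1 in R 4.3.3 was fitted to the 24 cortex arrays with 6 ages (18 residual degrees of freedom), or to all 95 arrays for comparisons between regions, with Benjamini-Hochberg adjustment over all genes tested. The code was checked on simulated data with independent noise and, for each gene, the same spread at all ages. The newborn arrays here were more spread than that, so the check does not vouch for the calls. The number of arrays limits the precision, and nothing states that replicates are unrelated animals. The p-values in cortex measure the spread between arrays of one age, pooled over the 6 ages. The newborn SD was above this pooled spread for 28 of the 32 called genes, so standard errors and p-values may understate the newborn spread.

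The samples compared follow from their labels, while gene lists and tests were chosen with earlier results of these data known, and some list members were added after values had been seen. Genes named were all calls with a symbol, the 10 largest rises and falls with an unadjusted p under 0.01 and no overlap, up to 4 members of each list by p, genes the study names and 2 ESTs each way. Other members of a list are given as values and were picked after they were seen. A gene is at least N-fold higher against the lowest signal well above background, whose median over the 8 arrays is 6.36 on the log2 scale. As same-numbered cortex arrays of both ages deviated together (r = 0.20, 0.16, 0.19 and 0.29), the numbers were treated as pairing the samples in an alternative. Unlike numbers within 1 and 2 or within 3 and 4 correlated about as much (r = 0.25, 0.12, 0.23 and 0.12), and the others were below 0, so the data do not set same numbers apart from these. Replicates 3 and 4 share slide 3. Alternatives were another offset, the processed signal, the authors' table, other normalization, filter, probe handling, blocks and thresholds, and each array left out. Promoter motifs were not searched, and some items counted in the lists are not reported here by name.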

Additional observations from a re-analysis of the deposited data

Results flagged for a closer look

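Single arrays stood apart within their group of 4 for 10 of 230 sets of values (gap to the next array relative to the range), which is about the 1 in 20 that chance gives. Of these, 4 were newborn replicate 1 and 3 newborn replicate 2. Newborn replicate 1 was at 8.33 for EE751760 (others 7.60 to 7.64), 8.82 for EE796126 (10.18 to 10.35), 6.83 for COL3A1 (others 6.66) and 6.56 for CXCL8 (7.01 to 7.03). Newborn replicate 2 was at 9.24 for IRF1 (7.25 to 7.56), 17.68 for M34672, an MHC class I sequence (14.32 to 14.86), and 6.84 for FCGR2B (6.65 to 6.68). At 145 d, replicate 1 was at 6.60 for NOS2 (6.67 to 6.68), replicate 2 at 6.86 for MGLUR1 (6.96 to 6.97) and replicate 3 at 7.39 for IL10 (7.13 to 7.15). The last 3 gaps are small on the log2 scale. The step of EE769660 differed between cortex and hypothalamus by -1.90 in limma.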

How the results depend on the processing

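Against 32 genes across birth, 18 passed with the processed signal (12 of the 32 among them), 49 with the slide as a random block, 2 with the 8 arrays alone and 55 and 0 at an adjusted p under 0.1 and 0.01. In an alternative chosen after seeing the data, 1 passed with the 8 arrays alone and the replicate block. The replicate number as a block gave 39 (27 higher and 12 lower), with 29 of the 32 among them, so the pairing moved the count by less than 1.5 times. Leaving out 1 array gave 2 to 176. For the bend at birth, leave-one-out counts ran from 0 to 11. For brainstem 1 gene differed in the authors' table and 0 to 4 with 1 array left out. For hypothalamus, against 1, the counts were 0 with the processed signal, 3 in the authors' table, 2 with normalization within region, 3 with the slide as a fixed or random block, 6 with the 16 arrays alone, 2 and 0 at an adjusted p under 0.1 and 0.01, and 0 to 2 with 1 array left out. Of 767 alternative values of the 32 called genes, 454 kept the call, 313 kept the direction without passing and 0 reversed. Where 1 array was left out, the direction was fixed in advance for the 28 genes whose groups did not overlap. GNLY went to 0 when probes were filtered after taking logarithms and when the brightest probe was used. With each probe on its own, the GNLY probe of the smallest change was at 0, while its other probes were at 2.11 and 2.43. FCGR2B ranged from -0.06 to 0 with 1 array left out. The number of arrays and signal near background, as for TC16824 and SELP at 145 d, limit these results. The causes were not tested.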
